A study of Mus musculus with 6 samples.

Results

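The genes described here build and control the mitotic spindle. The set holds 49 named genes for mitotic kinases and cyclins, their transcription factors, the spindle checkpoint, the kinetochore, mitotic kinesins, spindle proteins and cytokinesis. Each was found by its exact gene name among the 58735 genes of a count table of 22Rv1 cells, a human prostate cancer cell line. All 49 had enough counts to be tested, among 17142 tested genes.

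The comparison is between parental 22Rv1 cells cultured with vehicle and 22Rv1 BL-B01D1_R, a subline selected by exposing parental cells to rising concentrations of BL-B01D1. BL-B01D1 is a bispecific antibody against EGFR and HER3 that carries Ed-04, a topoisomerase I inhibitor, on a cleavable linker. Each group had 3 libraries, and the comparison asks how the mRNA levels of the resistant cells differ from those of the parental cells. Only 1 resistant line was made, so the libraries of a group are samples of 1 line and the p-values measure only the spread between those samples. Whether BL-B01D1 was in the medium at harvest is not given in the sources used here. Mouse is given as the organism in the labels, but the line, the genome build and the gene identifiers are those of human cells, and the values were treated accordingly.

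When a cell enters mitosis, CDK1 with cyclin B starts chromosome condensation and spindle assembly, and kinetochores on each centromere take hold of microtubules. Unattached kinetochores keep the spindle checkpoint active, which holds back CDC20 and the anaphase-promoting complex. Once all are attached, securin and cyclin B are degraded, sister chromatids part and the cell divides. Many of these genes are transcribed mainly in G2 and M phase, under FOXM1, B-MYB and the MuvB complex, and their mRNAs are widely used as a sign of proliferation.

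Counts on genes totaled between 13821639 and 17251491 per library, and single members had between 48 and 11599 counts in a library. Libraries of a group differed by somewhat more than counting error, with a chi-square of 1.75 to 2.38 for each degree of freedom (counting error alone gives about 1), and libraries of different groups by far more (18.4 to 21.3). The luminal prostate markers KRT8, HOXB13 and FOLH1 were present in both groups. KLK3, the gene for PSA, was low, at a mean of 2.67 CPM (counts scaled to a library of 1e6) in parental and 4.96 CPM in resistant cells. No immune or endothelial marker (3 of each) exceeded 3 counts in any library, and the basal markers KRT5, KRT14 and TP63 were at or near 0. The neuroendocrine marker CHGA fell by 2.26 on the log2 scale and the fibroblast marker LUM fell by 1.74 (adjusted p = 2.49e-24 and 1.11e-26, edgeR), while SYP was at 103 and 106 CPM. Of the other fibroblast markers, COL1A1 changed by −0.28 (adjusted p = 0.0348, edgeR), DCN was not called (0.286) and COL1A2 had at most 2 counts in a library. The part of the changes in CHGA and LUM in the results was not tested.

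Mitotic genes were slightly but broadly lower in the resistant cells. Of the 49 genes, 39 were lower at an adjusted p under 0.05 (edgeR's quasi-likelihood test, p-values adjusted by Benjamini-Hochberg over all tested genes), against 18.4% of all tested genes that were lower. None was higher, against 17.1% of all tested genes. At an unadjusted p under 0.05 the count of higher members was also 0, as it was with limma-voom and with DESeq2. The median log2 fold change, resistant relative to parental, was −0.24 over the members and 0.0038 over all tested genes. The same 39 genes had every resistant library below every parental library in CPM, against 22.8% of all tested genes.

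The changes were small. Among the 39 lower members the change ran from −8.95% for HMMR to −25.03% for KIF14, with a median of −16.9%. None of the 49 passed the fold threshold that the study's methods name, an absolute log2 fold change above 1, which 5.37% of all tested genes passed together with an adjusted p under 0.05. The count past that fold was also 0 at an unadjusted p under 0.05, with limma-voom and with DESeq2. The spread within groups was smaller for most members. The median coefficient of variation of the members was 3.22% among parental and 2.42% among resistant libraries. Most members were abundant, and abundant genes were called more often. Among genes with a mean of at least 50 CPM over the 6 libraries, 36 of 42 members (85.7%) were lower, beside 26.7% of all 5115 tested genes at that level.

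The members together took 0.670%, 0.669% and 0.664% of the counts in the parental libraries, in the order of their numbers, against 0.563%, 0.566% and 0.563% in the resistant ones. All resistant libraries lay below all parental ones. The summed level of the members was 6652 ± 48.4 CPM in parental and 5685 ± 15.9 CPM in resistant cells (SD, n = 3), a change of −14.5%. In RNA from a whole culture, fewer cells in mitosis and less of each mRNA per cell cannot be told apart. Mitochondrially encoded genes took a larger share of the counts in resistant cells, 5.27% ± 0.140 against 4.20% ± 0.00588 (SD, n = 3). With those genes left out, 17115 genes were tested and 39 members were again lower. Because so few genes were removed and the main fit was already scaled by TMM, this count could change little. The cause of the larger share was not tested.

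**Figure D1:**
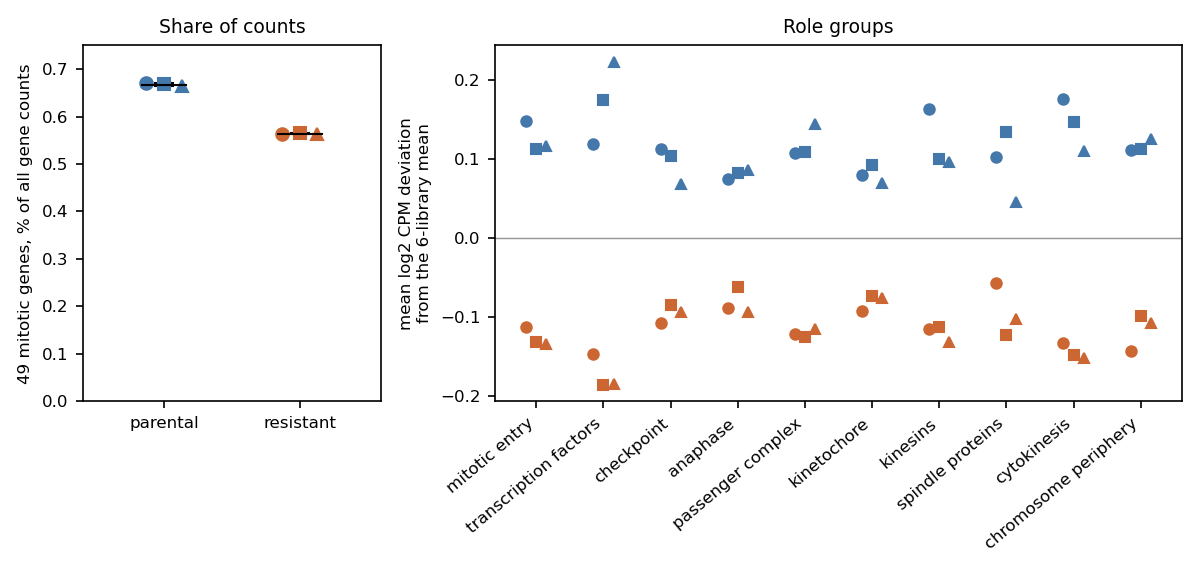
Percent of each library's counts that fell on the 49 mitotic genes (one panel, one point per library, with mean and SD) and the mean log2 CPM deviation of each role group from its mean over 6 libraries (other panel, one point per library). The 3 resistant libraries lie between 0.563% and 0.566% and the 3 parental libraries between 0.664% and 0.670%, and in each role group all resistant points are below all parental points.

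Of the 7 kinases and cyclins of mitotic entry, 6 were lower, and the median over the group was −0.27 on the log2 scale. CCNA2, the gene for cyclin A2 (chromosome 4, 121816444 to 121823933, minus strand, hg38), stood at 231, 228 and 217 CPM in parental libraries 1 to 3 and at 178.5, 181 and 179.8 CPM in the 3 resistant libraries in the same order. All parental values were above all resistant ones, and the log2 fold change was −0.33 ± 0.033 (SE, adjusted p = 9.29e-11, edgeR). The cyclin B genes CCNB1 and CCNB2, whose products activate CDK1, changed by −0.27 and −0.37 on the log2 scale. PLK1, the polo-like kinase of centrosome maturation and spindle assembly, changed by −0.35. AURKA, the Aurora A kinase of spindle poles, changed by −0.26, and NEK2, a kinase of centrosome separation, by −0.23. Adjusted p-values of these lower genes ran from 9.29e-11 to 1.41e-05 (edgeR).

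CDK1 itself, the kinase that the B cyclins activate, did not follow them. Its gene (chromosome 10, 60778331 to 60794852, plus strand) gave 193, 167 and 176 CPM in parental libraries and 194, 173 and 183 CPM in resistant libraries. The groups overlapped, and the log2 fold change was 0.036 ± 0.041 (SE, adjusted p = 0.543, edgeR). The 95% confidence interval of the ratio of resistant to parental level was 0.968 to 1.09, which leaves out the decrease of its cyclins. Without parental library 1, the highest of its group, the log2 fold change of CDK1 was 0.097 (adjusted p = 0.0497, edgeR), and it took a negative sign without parental library 2 (−0.013) or without resistant library 1 (−0.0046).

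Both transcription factors of the set were lower. MYBL2, the gene for B-MYB, which works with the MuvB complex at G2 and M phase genes (chromosome 20, 43667019 to 43716496, plus strand), had 119.8, 121 and 128 CPM in parental libraries and 97.8, 93.7 and 93.1 CPM in resistant libraries. The resistant values were all lower, with a log2 fold change of −0.37 ± 0.041 (SE, adjusted p = 5.57e-10, edgeR). FOXM1, the forkhead factor of the same genes, changed by −0.31 (adjusted p = 1.04e-08, edgeR), from 139.8 ± 5.74 to 112 ± 0.669 CPM (SD, n = 3).

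In the spindle checkpoint, 4 of 5 genes were lower. TTK (MPS1), the kinase that starts checkpoint signalling, changed by −0.30 on the log2 scale. BUB1, a checkpoint kinase at kinetochores, changed by −0.27, BUB1B (BUBR1), part of the mitotic checkpoint complex, by −0.21, and MAD2L1 (MAD2), which inhibits CDC20, by −0.17. Their adjusted p-values lay between 3.66e-07 and 0.000281 (edgeR). BUB3, the shared binding partner of BUB1 and BUBR1 (chromosome 10, 123154277 to 123170467, plus strand), was the exception, at 225, 217 and 208 CPM in parental libraries and 214, 215 and 216 CPM in resistant libraries. Its resistant values all fell inside the parental range. The log2 fold change of BUB3 was −0.012 ± 0.033 (SE, adjusted p = 0.813, edgeR), with a 95% confidence interval of the ratio of 0.947 to 1.04.

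At the step from metaphase to anaphase, CDC20, the activator of the anaphase-promoting complex, changed by −0.28 on the log2 scale, PTTG1 (securin, the inhibitor of separase) by −0.15 and ESPL1 (separase, the protease that cleaves cohesin) by −0.16. These 3 were lower, with adjusted p-values of 1.81e-08, 0.00483 and 0.00600 (edgeR). ESPL1 missed the threshold in limma on log2(FPKM + 1), with an adjusted p of 0.0566. UBE2C, the ubiquitin-conjugating enzyme of the complex, was at 91.2 ± 1.64 and 87.1 ± 5.27 CPM in parental and resistant cells (SD, n = 3) and was not called (adjusted p = 0.268, edgeR).

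The chromosomal passenger complex corrects wrong attachments and acts again in cytokinesis, and all 4 of its genes were lower. Its scaffold INCENP changed by −0.31 on the log2 scale, the kinase AURKB (Aurora B) by −0.27, BIRC5 (survivin) by −0.22 and CDCA8 (borealin) by −0.17. Adjusted p-values were between 2.71e-08 and 0.00400 (edgeR).

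Kinetochore genes were the most mixed group, with 6 of 10 lower. CENPE, a kinesin that carries chromosomes to the spindle equator (chromosome 4, 103105806 to 103198409, minus strand), gave 95.6, 94.98 and 97.3 CPM in parental libraries and 67.7, 79.3 and 76.0 CPM in resistant libraries. Resistant library 1 was the lowest, and all resistant values were below all parental ones (log2 fold change −0.37 ± 0.048, SE, adjusted p = 3.38e-08, edgeR). CENPF, a large protein of the outer kinetochore, changed by −0.17 (adjusted p = 4.32e-06, edgeR). CENPA, the histone variant that marks centromeres, changed by −0.28 (adjusted p = 0.00886, edgeR). The adjusted p of CENPA was 0.0606 without parental library 3 and 0.0509 without resistant library 1.

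The NDC80 complex, the main microtubule-binding unit of the kinetochore, split by subunit. NDC80 and NUF2, which form the microtubule-binding end, changed by −0.25 and −0.23 on the log2 scale (adjusted p = 3.44e-05 and 1.42e-05, edgeR). SPC24 and SPC25, which anchor the complex to the kinetochore, were not called. SPC24 (chromosome 19, 11131520 to 11155808, minus strand) had 71.1, 78.5 and 74.7 CPM in parental libraries and 75.8, 78.3 and 72.7 CPM in resistant libraries. The groups overlapped throughout, with a log2 fold change of 0.016 ± 0.048 (SE, adjusted p = 0.835, edgeR) and a 95% confidence interval of the ratio of 0.945 to 1.08. SPC25, at 17.8 ± 1.01 and 16.5 ± 1.87 CPM (SD, n = 3), had a wider interval of 0.809 to 1.05 and an adjusted p of 0.367 (edgeR), an interval that includes the change of NDC80.

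Of 3 inner kinetochore subunits, CENPI lay closest to the threshold, with a log2 fold change of −0.20 and an adjusted p of 0.0441 (edgeR). Its resistant library 2 and parental library 2 were both at 25.4 CPM, so that its groups came apart only in the third decimal, and CENPI kept its call in 8 of 17 alternative analyses. It lost it without parental library 1 (adjusted p = 0.129), without parental library 3 (0.130), without resistant library 1 (0.0982) and without resistant library 3 (0.209, edgeR). CENPM (chromosome 22, 41938721 to 41947164, minus strand) stood at 54.2, 59.5 and 52.2 CPM in parental libraries and at 55.6, 57.1 and 57.2 CPM in resistant libraries. The resistant values of CENPM fell within the parental range, and the log2 fold change was 0.031 ± 0.056 (SE, adjusted p = 0.715, edgeR). CENPK was at 42.1 ± 4.24 and 40.9 ± 3.86 CPM (SD, n = 3, adjusted p = 0.653, edgeR).

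**Figure D2:**
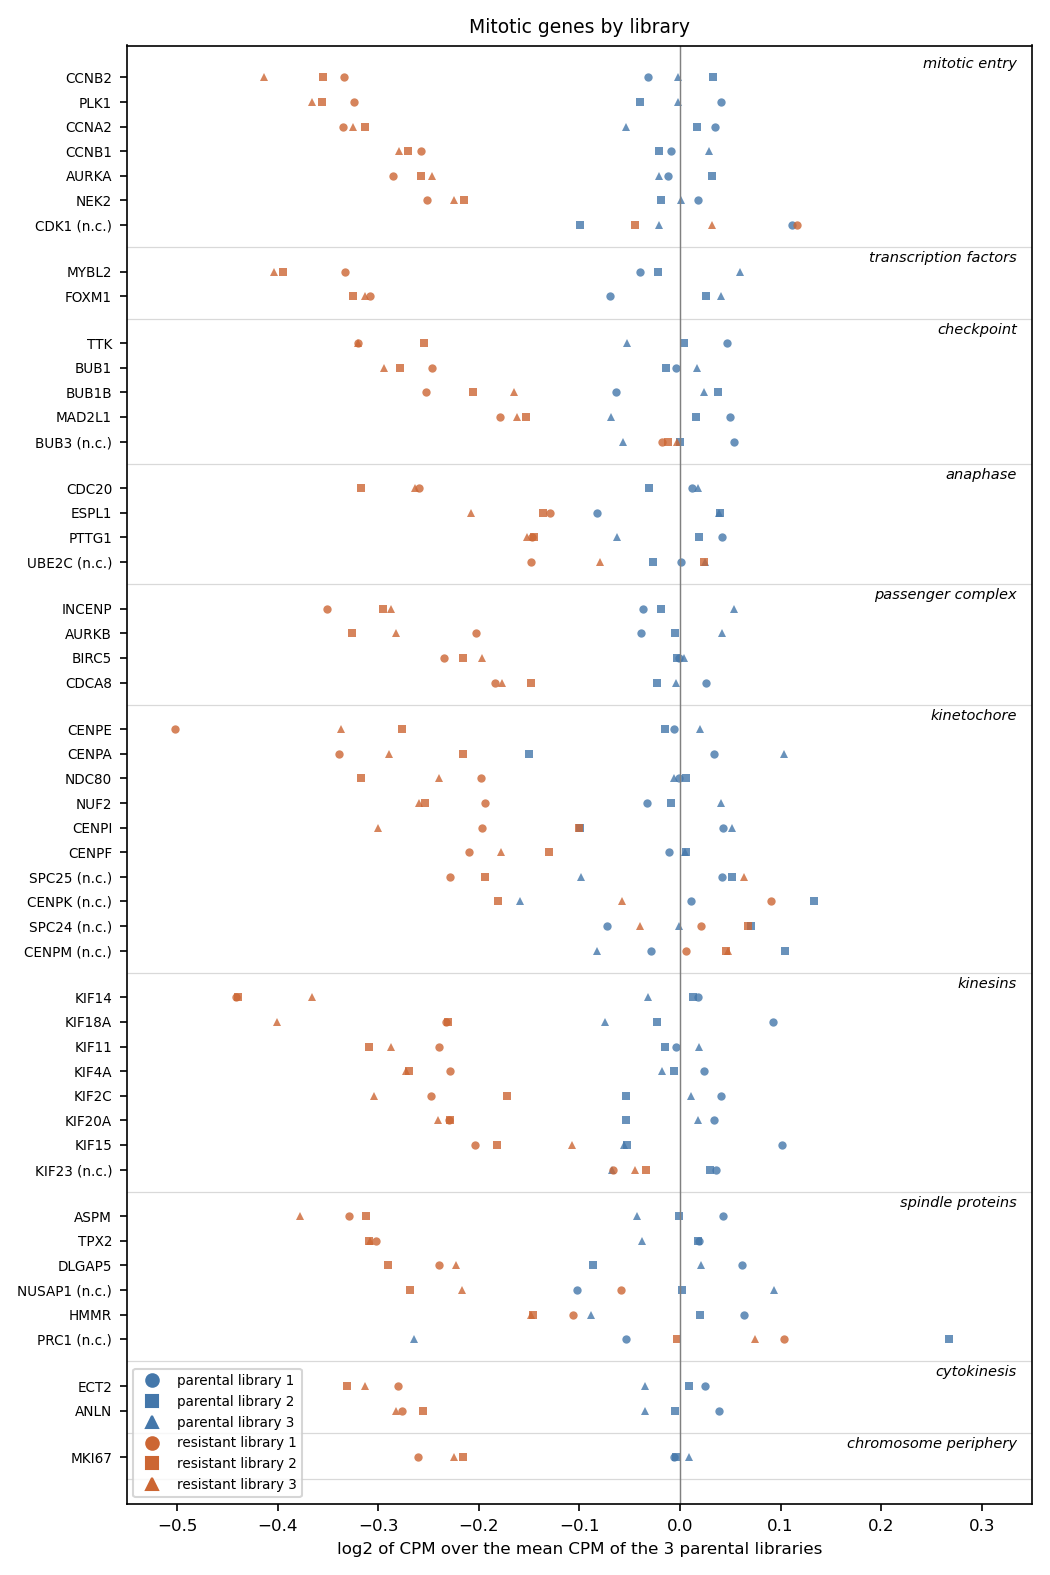
Level of each of the 49 mitotic genes in each of the 6 libraries, on the x axis as the log2 of its CPM over the mean of the 3 parental libraries, with genes on the y axis in role groups and n.c. for genes not called. In 39 genes every resistant library is below every parental library, while CDK1, BUB3, UBE2C, CENPK, CENPM, SPC24, SPC25, KIF23, PRC1 and NUSAP1 overlap between groups.

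Mitotic kinesins were lower in 7 of 8 cases. KIF14, a motor of cytokinesis (chromosome 1, 200551497 to 200620734, minus strand), showed the largest decrease among the 49 genes, from 74.8, 74.6 and 72.3 CPM in parental libraries to 54.4, 54.5 and 57.3 CPM in resistant libraries. The groups were well apart, with a log2 fold change of −0.42 ± 0.050 (SE, adjusted p = 5.68e-09, edgeR). KIF18A, which dampens chromosome oscillations, changed by −0.29, KIF11 (Eg5), which separates the spindle poles, by −0.28, and the chromokinesin KIF4A by −0.26. KIF2C (MCAK), a microtubule depolymerase, changed by −0.24 and KIF20A (MKLP2), a motor of cytokinesis, by −0.23. KIF15, which helps to keep the spindle bipolar, changed by −0.17 (adjusted p = 0.0132, edgeR), but it missed the threshold without parental library 1 (0.139), resistant library 1 (0.0741) or resistant library 2 (0.0543). KIF23 (MKLP1), the motor of the central spindle, was at 92.5 ± 3.66 and 89.5 ± 1.04 CPM (SD, n = 3) and was not called (adjusted p = 0.4, edgeR).

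Among 6 other spindle proteins, 4 were lower. ASPM, a spindle pole protein (chromosome 1, 197084128 to 197146694, minus strand), had the smallest adjusted p of the set, with 297, 288 and 280.1 CPM in parental libraries and 229.7, 232 and 222 CPM in resistant libraries. The lowest parental value was above the highest resistant value by far more than the spread within either group (log2 fold change −0.34 ± 0.032, SE, adjusted p = 7.28e-12, edgeR). TPX2, which activates Aurora A on spindle microtubules (chromosome 20, 31739271 to 31801805, plus strand), had 263, 263 and 253 CPM in parental libraries and 211, 209.6 and 209.8 CPM in resistant libraries. The resistant libraries were nearly equal and all lower, with a log2 fold change of −0.31 ± 0.031 (SE, adjusted p = 9.16e-11, edgeR). DLGAP5 (HURP), a stabiliser of kinetochore fibres, changed by −0.25 (adjusted p = 6.66e-05, edgeR). HMMR, a spindle assembly protein, changed by −0.14 (adjusted p = 0.00489, edgeR), the smallest decrease among the 39.

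NUSAP1, a nucleolar and spindle-associated protein, was the first gene outside the threshold, with a log2 fold change of −0.17 (adjusted p = 0.130, edgeR) at 20.0 ± 1.35 and 17.7 ± 1.36 CPM (SD, n = 3). PRC1, the cross-linker of central spindle microtubules (chromosome 15, 90966038 to 90995629, minus strand), was the least abundant member, at 4.00, 5.00 and 3.46 CPM in parental libraries and 4.46, 4.15 and 4.38 CPM in resistant libraries. The resistant values fell within the parental range. The log2 fold change of PRC1 was 0.052 ± 0.183 (SE, adjusted p = 0.862, edgeR), and the 95% confidence interval of its ratio, 0.802 to 1.34, includes the change of most other members. A same-strand coding gene that overlaps PRC1, AC068831.7, held 305% of the mean count of PRC1, and reads in the shared stretch could have been left out or assigned to either gene.

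The 2 genes of cytokinesis and the proliferation marker Ki-67 were lower as well. ECT2, the exchange factor that activates RhoA at the cleavage furrow (chromosome 3, 172750682 to 172821474, plus strand), had 200.02, 198 and 192 CPM in parental libraries and 162, 156 and 158 CPM in resistant libraries. All resistant values were lower, with a log2 fold change of −0.31 ± 0.034 (SE, adjusted p = 7.01e-10, edgeR). ANLN (anillin), a scaffold of the contractile ring, changed by −0.27 (adjusted p = 1.06e-09, edgeR). MKI67, which encodes the Ki-67 coat of mitotic chromosomes (chromosome 10, 128096659 to 128126385, minus strand), was the most abundant member by counts, at 673, 674 and 679.8 CPM in parental libraries and 564, 582 and 578 CPM in resistant libraries. The groups of MKI67 did not overlap, and its log2 fold change was −0.23 ± 0.025 (SE, adjusted p = 4.98e-10, edgeR).

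**Figure D3:**
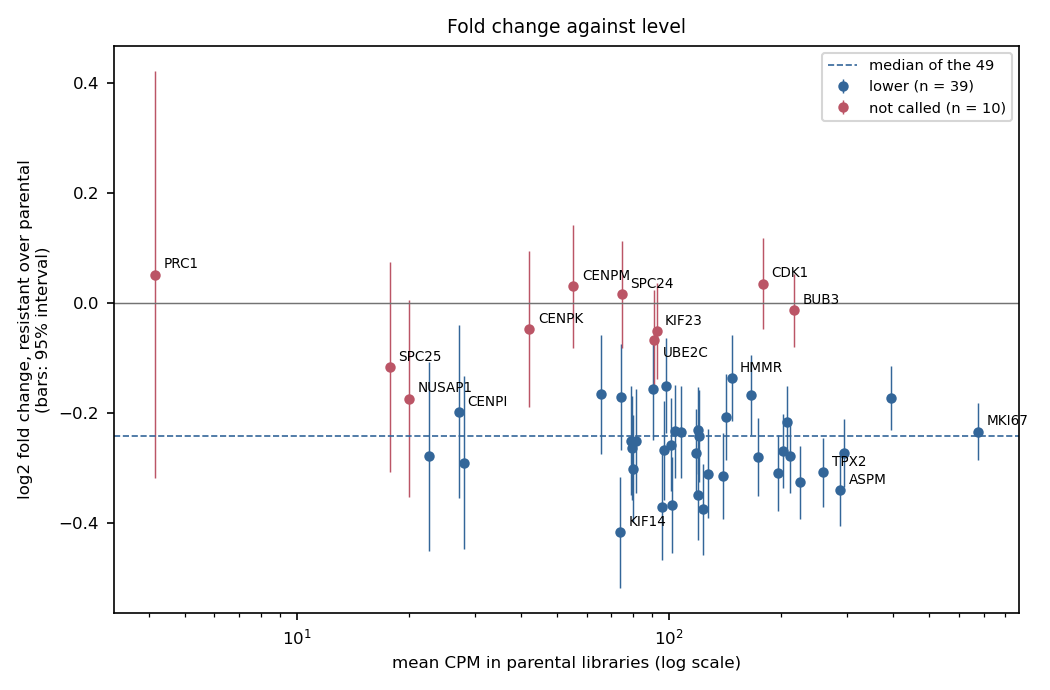
Log2 fold change of each mitotic gene (y axis, resistant relative to parental) against its mean parental level (x axis, CPM on a log scale), with 95% confidence intervals as bars and the median of the 49 as a dashed line. The 49 members lie between −0.42 (KIF14) and 0.052 (PRC1), with the widest interval for PRC1.

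Per length of transcript, levels in parental cells ran from 84.8 ± 1.57 FPKM (counts per kilobase of gene length in a library of 1e6) for CDC20 to 0.752 ± 0.142 FPKM for PRC1 (SD, n = 3). CCNA2 (80.5 ± 2.59 FPKM) and CCNB1 (79.1 ± 1.43 FPKM) followed CDC20 and differed by less than their spread, as did TPX2 (72.0 ± 1.61 FPKM) and UBE2C (70.9 ± 1.28 FPKM). In resistant cells UBE2C, at 67.7 ± 4.10 FPKM, stood above CCNB1 (65.7 ± 0.505 FPKM), CCNA2 (64.3 ± 0.503 FPKM) and TPX2 (58.2 ± 0.138 FPKM), although its distance from CCNB1 and CCNA2 was within its own spread. The next lowest genes after PRC1 in parental cells were KIF18A (6.01 ± 0.361 FPKM) and CENPI (6.31 ± 0.365 FPKM), which did not differ beyond their spread.

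The 10 genes that were not called included direct partners of lower genes, so ratios between partners differed between the groups. For 8 pairs, chosen after the values were seen so that a lower ratio was built into the choice, the ratio of counts is given as a description with no test. KIF20A with KIF23 and CDC20 with UBE2C were paired by shared process and not as direct partners. The ratio of CCNB1 to CDK1 counts was 1.04, 1.196 and 1.17 among parental libraries, whereas resistant libraries gave 0.874, 0.969 and 0.913. For CCNA2 to CDK1 the mean went from 1.26 ± 0.0900 to 0.984 ± 0.0627, and for CCNB2 to CDK1 from 0.574 ± 0.0546 to 0.433 ± 0.0241 (SD, n = 3). In each of these ratios all resistant libraries were below all parental libraries. BUB1 to BUB3 went from 0.544 ± 0.0254 to 0.454 ± 0.00988, and BUB1B to BUB3 from 0.655 ± 0.0463 to 0.571 ± 0.0144. Within the NDC80 complex, NDC80 plus NUF2 over SPC24 plus SPC25 went from 2.05 ± 0.0849 to 1.74 ± 0.0783. The central spindle motors KIF20A and KIF23 gave 1.12 ± 0.0656 and 0.985 ± 0.0126, and CDC20 over UBE2C gave 1.90 ± 0.0128 and 1.64 ± 0.132. None of the 8 ratios overlapped between groups. A ratio within a library does not depend on how libraries are scaled.

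**Figure D4:**
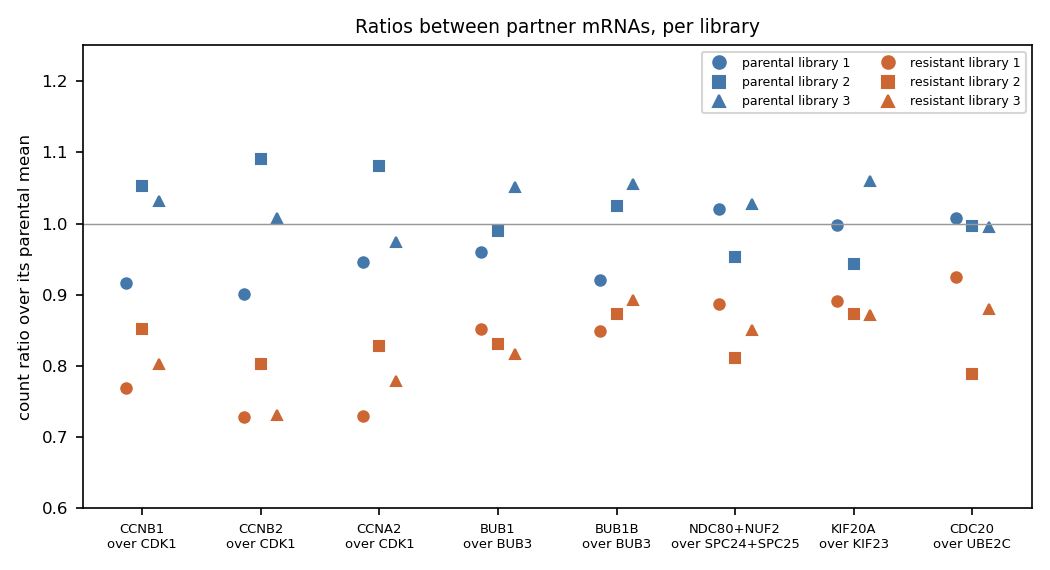
Ratio of counts of lower genes to those of paired genes that were not called, in each of the 6 libraries, divided by the mean ratio of the parental libraries, for the 8 pairs. Points are libraries, and in each pair the 3 resistant points lie below the 3 parental points.

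The 49 genes lie on 19 chromosomes. Around the 39 lower genes, 679 other tested genes lay within 1 Mb, and 142 of them (20.9%) were lower and 114 (16.8%) higher, near the shares among all tested genes. Their median log2 value was 0.0018. Of the 39, 37 had a lower fold change than the median of their own neighbours, and PTTG1 and CENPF did not. Because the 39 were picked as lower in these same data, a position below their neighbours was largely built into the choice. This comparison with neighbours was chosen after the values were seen and carries no test.

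For 10 members, a coding gene that overlaps them held at least 10% as many counts as the member. Since the sources do not state whether counting used strand, values of such pairs are uncertain. Of these 10, CENPA and PRC1 had such a gene on the same strand. Same-strand coding genes below that share also overlapped BUB1B (BUB1B-PAK6), KIF15 (TMEM42) and NUSAP1 (AC087721.2). SLC35F6, which overlaps CENPA and held 176% of its counts, had a log2 fold change of 0.27 where CENPA had −0.28. KIF18A (METTL15) and KIF20A (BRD8) also had an overlapping gene of similar count on the other strand. Related copies of members, mostly pseudogenes, held at most 0.504% of the member's counts.

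Other genes of the cell cycle and spindle were placed in 12 lists of 193 genes, of which 192 were tested. In them, 104 genes (54.2%) were lower and 16 (8.33%) higher, beside 18.4% and 17.1% of all tested genes. The median was −0.13 on the log2 scale, which lies between the median of the 49 members and that of all tested genes. Past both thresholds stood 1 gene that was higher and 2 that were lower, against 2.53% and 2.84% of all tested genes.

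The counts of each list are to be read beside the shares of all tested genes, 18.4% lower and 17.1% higher. Genes of chromosome structure were mostly lower, apart from the other kinetochore subunits. One list held condensin and cohesin, which shape and hold the chromatids, and proteins that act with them. In it 18 of 21 genes were lower (median log2 fold change −0.17). Their changes ran from −0.33 for SGO1, the protector of centromeric cohesin, to −0.087 for TOP2A, the topoisomerase of chromosome condensation. Both lost their call without resistant library 3 (adjusted p = 0.0572 and 0.0591, edgeR). Of 7 other checkpoint proteins, 4 were lower (median −0.21), with SPDL1 at −0.36 and ZWILCH at −0.21, both of which act at unattached kinetochores. Among 25 other kinetochore subunits 12 were lower (48%, median −0.13) and 1 was higher. MIS18A, which helps to load CENP-A, changed by −0.39, and CENPC, the inner kinetochore protein that binds CENP-A nucleosomes, was higher by 0.44, going from 25.3 ± 1.90 to 34.2 ± 4.01 CPM (SD, n = 3, adjusted p = 1.60e-05, edgeR).

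At centrosomes and spindle poles, 15 of 26 genes were lower and 1 higher (median −0.16). SASS6, which builds the centriole cartwheel, changed by −0.39, while TUBGCP6, a subunit of the gamma-tubulin ring, was higher by 0.13 (adjusted p = 0.0451, edgeR), a call lost without any one of parental libraries 1 and 2 and resistant libraries 1 and 3 (adjusted p between 0.0699 and 0.286). Of 4 other mitotic kinesins, 3 were lower, with KIF18B at −0.29 and KIF22 at −0.12. KIF22 was not called without parental library 2 (adjusted p = 0.0720, edgeR). The 13 interphase kinesins, which carry cargo along microtubules, had 4 higher (30.8%) and 4 lower (30.8%) members and a median of 0.024. They held much larger single changes, with KIF5C at 27.2 ± 2.27 and 64.4 ± 3.62 CPM (log2 fold change 1.24, adjusted p = 1.22e-19, edgeR) and KIF21B at 4.21 ± 0.124 and 1.02 ± 0.273 CPM (SD, n = 3, log2 fold change −2.02, adjusted p = 1.59e-08, edgeR).

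Regulators of the cell cycle were more varied. Of 12 regulators of mitotic entry, 9 were lower (median −0.18), including the phosphatase CDC25A (−0.24), and ENSA, an inhibitor of the phosphatase PP2A, was higher by 0.11. The list of the anaphase-promoting complex also held FZR1, UBE2S and FBXO5, which are not subunits. Of the 17 genes in that list, 6 were lower, UBE2S and FBXO5 among them, and 1 was higher (median −0.050). ANAPC10 changed by −0.77 (12.0 ± 0.620 to 6.98 ± 1.64 CPM, SD, n = 3) and ANAPC16 by 0.25. Of 19 MuvB, RB and E2F genes, 9 were lower and 2 higher (median −0.11). LIN9, a core MuvB subunit, changed by −0.35 (adjusted p = 5.03e-07, edgeR), and E2F5, which acts with the RB-like pocket proteins, was higher by 0.52 (adjusted p = 0.000492, edgeR). Tubulin genes gave 4 higher (36.4%) and 3 lower (27.3%) of 11 (median 0.020), and the called changes ran from −0.60 for TUBB2B to 0.44 for TUBB2A.

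Genes of DNA replication were mostly lower too. All 25 replication licensing and fork genes had log2 fold changes below 0, and 19 were lower (median −0.19), with MCM5, a subunit of the replicative helicase, at −0.29 (297 ± 2.41 to 243 ± 2.49 CPM, SD, n = 3, adjusted p = 1.23e-10, edgeR) and RFC3, a subunit of the clamp loader, at −0.13. RFC3 lost its call without parental library 1 (adjusted p = 0.104), resistant library 2 (0.0503) or resistant library 3 (0.0501, edgeR). The list of G1 cyclins and CDK inhibitors also held CDK2, CDK4 and CDK6. Its 12 tested genes had 2 higher (16.7%) and 2 lower (16.7%) members, near the shares among all tested genes, and a median of 0.0092. Every called gene was a CDK inhibitor, and CDKN2D was the only inhibitor of the list that was not called (adjusted p = 0.446, edgeR). CDKN1A, the gene for the CDK inhibitor p21, was higher by 0.79 on the log2 scale, from 57.4, 65.6 and 61.2 CPM in parental libraries to 99.96, 104 and 114 CPM in resistant libraries (adjusted p = 1.24e-16, edgeR). CDKN2C, the gene for the CDK4 and CDK6 inhibitor p18, was higher by the same 0.79, and its name was added after its values were seen. CDKN1C, the gene for the inhibitor p57, changed by −1.08, from 11.1 ± 0.822 to 5.24 ± 0.867 CPM (SD, n = 3, adjusted p = 2.33e-08, edgeR), and CDKN1B (p27), also named after its values were seen, by −0.31. CCND1, the cyclin D1 gene, was not called, at 3966 ± 79.8 and 4039 ± 37.2 CPM (SD, n = 3, adjusted p = 0.339, edgeR).

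**Figure D5:**
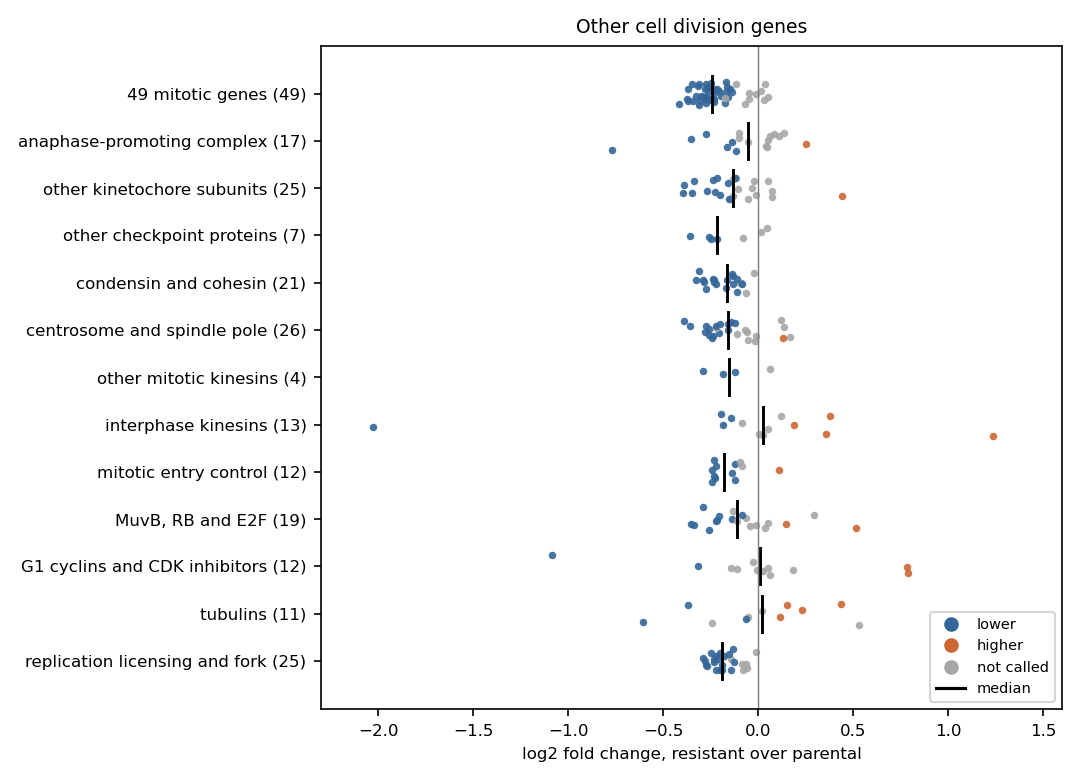
Log2 fold change, resistant relative to parental, of the 49 mitotic genes and of the genes in the 12 other lists, one point per tested gene with the median of each list. Medians lie from −0.24 for the mitotic genes to 0.024 for the interphase kinesins, and the widest single changes are KIF21B at −2.02 and KIF5C at 1.24.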

How the data were processed

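RNA-Seq was carried out on 3 parental and 3 resistant 22Rv1 libraries from oligo-dT purified mRNA on an Illumina NovaSeq instrument. Per the labels and the methods, the authors trimmed reads with fastp (version not given), mapped them to hg38 with HISAT2 2.0.5, counted them per gene with featureCounts 1.5.0-p3 and deposited the raw counts beside each gene's name, coordinates, length and biotype. The annotation release, the strand setting and any filter are not given in the sources used here. The deposited gene lengths, another quantity, were used for FPKM.

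Counts were filtered with filterByExpr, scaled by TMM and tested by quasi-likelihood in edgeR 4.0.16 (R 4.3.3), with Benjamini-Hochberg adjustment over 17142 genes and a threshold of 0.05. CPM are counts in a library of 1e6 after TMM scaling. A standard error is the log2 fold change divided by the root of its F statistic. At these depths 3 counts equal 0.174 to 0.216 CPM, for counting error only. Alternatives were limma-voom and limma on log2(FPKM + 1) (limma 3.58.1), DESeq2 1.42.0, other scalings and filters, protein-coding genes only, the replicate number as a block, and each library left out. Leaving out mitochondrial genes was added after the data were seen.

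The members and lists were chosen with earlier results of these data known. All members could be named. Values per library are given for the 6 members with the smallest adjusted p, the 3 highest and 3 lowest fold changes and the 3 largest adjusted p. In each other list the genes past both thresholds and the highest and lowest called fold change were named. Some other genes of these lists were named after the values were seen. Programs were tested on simulated data. There edgeR recovered 59 of 100 genes changed by 0.25 on the log2 scale and 100 of 100 changed by 1, and it called 7 unchanged genes. The changed genes were drawn from all tested genes above a count floor. Members had a higher median parental level than all tested genes (104 against 19.4 CPM), so these shares are not those of the members. A gene that was not called is still not shown to be unchanged. Sequences are not used here, and some marker and overlapping genes are not reported here.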

Additional observations from a re-analysis of the deposited data

How the results depend on the processing

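Across 17 alternative analyses, between 36 and 39 mitotic genes were lower, none passed the fold threshold, and 35 of the 39 were lower in each alternative, the exceptions being ESPL1, CENPA, CENPI and KIF15. Leaving out 1 library at a time gave 36 to 39 lower genes, a median log2 fold change of −0.25 to −0.23 and 0 to 1 higher genes, the 1 being CDK1 without parental library 1. With library size alone the median was −0.257. The lists of other genes gave 92 to 110 lower and 13 to 21 higher genes.

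Genes that were not called took the other sign in places, and none was called where its sign turned. These were SPC24 with library size alone (−1.68e-05) and BUB3 among protein-coding genes only (0.0014). With 1 library left out at a time, log2 fold changes ran from −0.038 to 0.015 for BUB3, −0.021 to 0.053 for SPC24, −0.013 to 0.097 for CDK1, −0.12 to 0.024 for CENPK, −0.0056 to 0.086 for CENPM and −0.054 to 0.21 for PRC1. The cause was not tested.

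Both groups carry replicate numbers 1 to 3, but deviations of libraries with the same number were uncorrelated (r = −0.0073, −0.021 and −0.012), so the numbers were not taken as pairs. With the replicate number as a block, 38 mitotic genes were lower and 0 higher (median log2 fold change −0.24), none passed the fold threshold, and the other lists had 100 lower and 14 higher genes. CENPI (adjusted p = 0.0557, edgeR) and TUBGCP6 (0.0503) were not called under the block.

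PRC1, SPC25 and NUSAP1 had low counts, and their intervals were wide enough to include the median change. Why their counts were low was not tested.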
